A study of Homo sapiens with 13 samples.

Results

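The genes described are 31 genes of the p53 response and of apoptosis, taken by symbol from the 58581 genes of the deposited RNA-seq count table of SRSF2-expressing HEL cells. All 31 were found there, and for 3 of them the study's table of SRSF2 binding held a window. HEL is a human erythroleukemia line, and the cells carried a stable, doxycycline-controlled construct of the splicing factor SRSF2. RNA depleted of ribosomal RNA was sequenced in 2 P95H libraries and 2 WT libraries after 48 hours of doxycycline at 1 µg/ml, and in 1 library of the P95H line labelled uninduced. P95H is a substitution in SRSF2 that recurs in myelodysplastic syndromes, and WT is the normal protein. Binding was measured by HITS-CLIP, which sequences the RNA fragments that stay attached to an immunoprecipitated, Flag-tagged protein after ultraviolet crosslinking, in 4 P95H and 4 WT samples after 36 hours of doxycycline. The cells also have their own SRSF2 gene, and every library used here came from a line with a construct. The labels describe replicates as biological, without saying whether a line was 1 clone or a pool, or whether a number marks a shared day or culture.

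The p53 response follows DNA damage and other stresses and switches on genes of cell cycle arrest, DNA repair, metabolic protection and cell death, together with MDM2, the ligase that limits the response. The intrinsic route to death runs through BH3-only proteins, which release the pore-forming BAX and BAK1 from BCL2 and its relatives, and then through APAF1, which assembles caspase-9 into the apoptosome.

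The 5 libraries held 37414093 to 45005605 counts, and 3 counts corresponded to 0.0667 to 0.0802 CPM (counts scaled to a common library total). SRSF2 stood at 223 and 252 CPM in P95H replicates 1 and 2, at 222 and 241 CPM in WT replicates 1 and 2, and at 285 CPM in the uninduced library, so the uninduced library was not marked by a lower level, and counts cannot tell the construct from the cells' own gene. Protein genes of the mitochondrial genome held 1.38% of counts in the 2 replicate 1 libraries and 4.14% to 4.50% in both replicate 2 libraries and the uninduced one. Libraries thus differed by replicate number as well as by genotype. Of the erythroid markers 9 of 10 and of the megakaryocyte markers 6 of 8 reached 1 CPM in every library, with summed levels of 1173 to 2093 and 1092 to 1527 CPM, although the megakaryocyte gene GP1BB was at 0. Of the myeloid, lymphoid, and epithelial and fibroblast markers 3, 1 and 3 of 8 each did, with summed levels of 11.4 to 17.5, 6.35 to 8.67 and 33.7 to 44.3 CPM, and ELANE and EPCAM were at 0.

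P95H was first compared with WT, both after doxycycline. CDKN1A, which encodes the cyclin-dependent kinase inhibitor p21, and SESN2, a sestrin that restrains mTORC1 under stress, were lower in P95H than in WT within both replicate numbers. Both fell in the fit that takes the replicate number as a block, while no gene passed in the fit on genotype alone. The apoptosome gene APAF1, the BH3-only gene PMAIP1 and the pore-forming gene BAK1 were lower in both P95H libraries than in both WT libraries. So were the repair genes RRM2B and XPC. These differences were smaller and did not pass, and 11.9% of all genes lay the same way. BAX, the anti-apoptotic genes and the remaining BH3-only genes overlapped between the genotypes.

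On genotype alone, the quasi-likelihood test of edgeR, adjusted by the Benjamini-Hochberg method, called 0 of 22007 genes (0%) and hence 0 of 31 members at an adjusted p under 0.05. At an unadjusted p under 0.05 edgeR counted 227 genes and DESeq2 100, and DESeq2 also called 0. With the replicate number as a block, edgeR called 84 genes (0.382%), 41 up and 43 down (0.195%), and 2 members, CDKN1A and SESN2, both down. With DESeq2's size factors the same fit called the same 2 members, where 0.386% of genes passed, and the DESeq2 test with the block called SESN2, where 11 of 22007 genes (0.05%) passed. DESeq2 with the block gave no adjusted p to 11947 of those genes, so its share among genes with one is higher. The block fit leaves 1 residual degree of freedom, so its spread is borrowed largely from other genes. In bulk RNA, fewer cells of a type and less RNA per cell cannot be told apart.

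More members were lower than higher in P95H, and how many depended on the libraries used. On genotype alone 25 of 31 log2 changes were negative, with a median of -0.07, against 49.5% of all genes tested and a median of 0.00. Without WT replicate 2 it was 18 of 31 with a median of -0.01, and without P95H replicate 2 it was 26 of 31 with a median of -0.16. Markers of the lineage leaned the same way on genotype alone, with none past the test: 9 of 9 tested erythroid markers were negative, with a median of -0.15, and 5 of 6 megakaryocyte markers, with a median of -0.13. The summed erythroid level was 1207 and 1763 CPM in P95H, against 1173 and 2093 CPM in WT, and without WT replicate 2 only 1 of 9 erythroid markers was negative, with a median of 0.33. The megakaryocyte integrin gene ITGB3 fell in the block fit by 0.62 on the log2 scale (SE 0.08, edgeR adjusted p 4.72e-06). The part of these markers in the members' direction was not tested. Within replicate numbers, 15 members were lower in P95H in both pairs of same-numbered libraries, where 26.7% of genes were, and 0 were higher in both, where 27.2% of genes were. The remaining 16 moved in opposite directions in the 2 pairs. The median difference over members was -0.03 in the first pair and -0.12 in the second. In 5 members, XPC, RRM2B, PMAIP1, BAK1 and APAF1, both P95H libraries lay below both WT libraries, where 11.9% of all genes did so, and in 0 members above, where 12.8% of genes did.

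**Figure D1:**
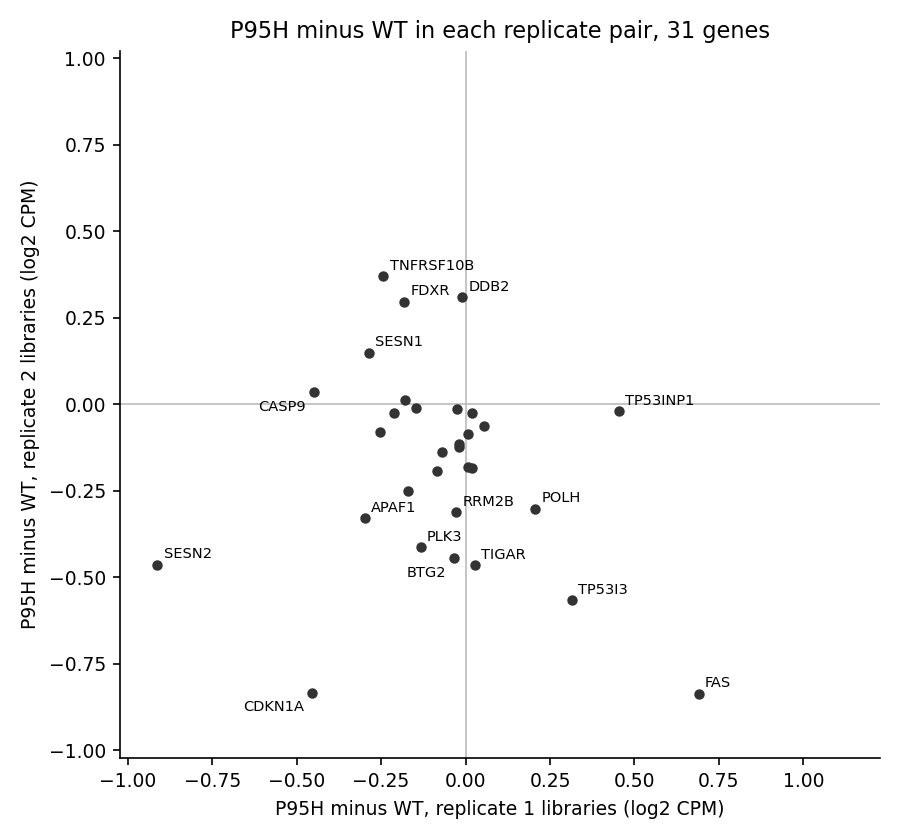
Each point is 1 of the 31 genes, with the log2 CPM difference of P95H minus WT in replicate 1 on the x axis and in replicate 2 on the y axis. SESN2 at -0.91 and -0.46 and CDKN1A at -0.45 and -0.83 lie lowest on the 2 axes together, while FAS, with 7 to 21 counts per library, lies at 0.69 and -0.84.

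Of the 6 arrest genes, CDKN1A alone passed, in the block fit. CDKN1A (ENSG00000124762, GRCh38 chromosome 6, 36676460 to 36687339, plus strand) had 7.22 and 11.2 CPM in P95H replicates 1 and 2, against 9.91 and 19.9 CPM in WT replicates 1 and 2, and 9.98 CPM in the uninduced library. P95H was the lower library in each pair, but P95H replicate 2 lay above WT replicate 1, so the genotypes overlapped at 9.19 ± 2.78 and 14.9 ± 7.07 CPM (SD, n = 2 each). The log2 change was -0.69 (SE 0.37) on genotype alone, with an edgeR adjusted p of 0.9999, and -0.65 (SE 0.13) in the block fit, with an edgeR adjusted p of 0.00637. WT replicate 2 carried much of the first value: without it the change on genotype alone was -0.11. DESeq2 with the block gave an adjusted p of 0.383 for CDKN1A.

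BTG2, an antiproliferative cofactor of mRNA deadenylation, had 11.8 and 18.7 CPM in P95H, against 12.1 and 25.4 CPM in WT. PLK3, a stress-responsive polo-like kinase, had 11.9 and 20.6 CPM in P95H, against 13.1 and 27.4 CPM in WT. Both were therefore high in the replicate 2 libraries of both genotypes, and their log2 changes of -0.24 (BTG2) and -0.27 (PLK3) in the block fit had edgeR adjusted p of 0.556 and 0.444. GADD45A, a damage-induced stress sensor, had 64.3 and 80.9 CPM in P95H and 76.7 and 85.4 CPM in WT, with overlap between genotypes. CCNG1, which encodes cyclin G1, had 299 and 267 CPM in P95H and 331 and 269 CPM in WT. ZMAT3, an RNA-binding p53 target, had 55.9 and 50.0 CPM in P95H, on either side of the 53.9 and 52.2 CPM of WT.

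MDM2, the negative feedback ligase, had 208 and 199 CPM in P95H, against 206 and 226 CPM in WT. The genotypes overlapped, and its log2 change was -0.07 (SE 0.11) on genotype alone and -0.07 (SE 0.08) in the block fit.

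Among the 6 antioxidant and metabolic genes, SESN2 passed, again in the block fit. SESN2 (ENSG00000130766, chromosome 1, 28259527 to 28282491, plus strand) had 18.8 and 10.5 CPM in P95H replicates 1 and 2, against 35.5 and 14.5 CPM in WT replicates 1 and 2, and 10.9 CPM in the uninduced library. WT replicate 1 stood above all other libraries, P95H was the lower library in each pair, and the genotypes overlapped at 14.7 ± 5.87 and 25.0 ± 14.8 CPM (SD, n = 2 each). The log2 change was -0.76 (SE 0.45) on genotype alone and -0.69 (SE 0.11) in the block fit, where edgeR's adjusted p was 0.000457 and DESeq2's 0.0410. The value on genotype alone rested on WT replicate 1, without which it was 0.02.

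The other 5 genes of the group overlapped between genotypes. TP53INP1, a stress-induced regulator of autophagy and cell death, had 5.09 and 2.30 CPM in P95H and 3.71 and 2.33 CPM in WT. SESN1, the second sestrin, had 32.3 and 36.5 CPM in P95H and 39.4 and 32.9 CPM in WT. TIGAR, a fructose bisphosphatase that lowers glycolytic flux, had 2.99 and 2.86 CPM in P95H and 2.93 and 3.97 CPM in WT. These 3 genes had pair differences of opposite sign, although TP53INP1 was nearly level between the replicate 2 libraries (-0.02). TP53I3, a quinone oxidoreductase, had 2.18 and 2.10 CPM in P95H and 1.74 and 3.12 CPM in WT. FDXR, the mitochondrial ferredoxin reductase, had 6.59 and 9.24 CPM in P95H and 7.48 and 7.51 CPM in WT. Their pair differences were also of opposite sign, at 0.31 and -0.57 for TP53I3 and -0.18 and 0.30 for FDXR.

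**Figure D2:**
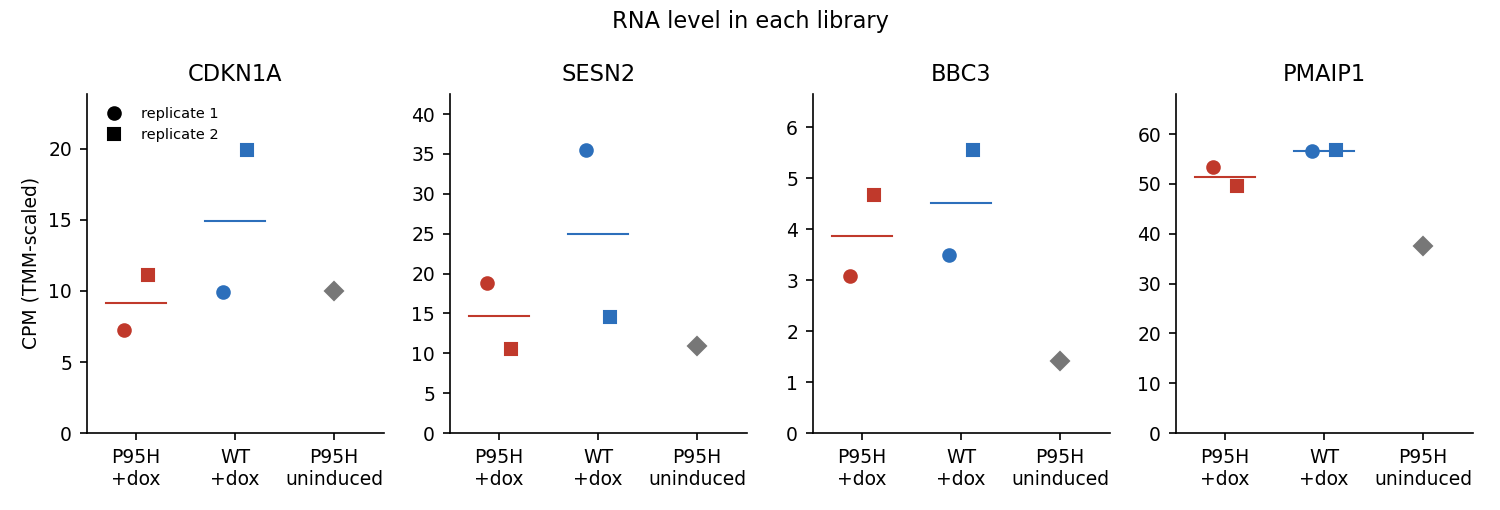
CPM, scaled by TMM, of CDKN1A, SESN2, BBC3 and PMAIP1 in P95H and WT libraries given doxycycline and in the uninduced P95H library, with circles for replicate 1, squares for replicate 2, lines for the mean of 2 and a diamond for the single uninduced library. Within each replicate number CDKN1A and SESN2 are lower in P95H than in WT, and all 4 doxycycline libraries exceed the uninduced library for BBC3 (3.09 to 5.55 against 1.41 CPM) and PMAIP1 (49.7 to 56.8 against 37.6 CPM).

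Since CDKN1A and SESN2 were the pair that fell together in P95H, and BBC3 and PMAIP1 the members above the uninduced library in all 4 doxycycline libraries that passed edgeR's test in both genotypes under both placings described further on (though not DESeq2's in P95H), the 250 bases before the start of each are shown, from the RefSeq promoter table of build GRCh38.p14, on the strand of the gene. They are chr6:36678464-36678713 (plus) for CDKN1A, chr1:28259268-28259517 (plus) for SESN2, chr19:47232668-47232917 (minus) for BBC3 and chr18:59899746-59899995 (plus) for PMAIP1. Capitals mark, on either strand, the GC box GGGCGG, the box CCAAT, the TATA box (spelled TATAAA here) and the core of the cyclic AMP response element, TGACG.
CDKN1A: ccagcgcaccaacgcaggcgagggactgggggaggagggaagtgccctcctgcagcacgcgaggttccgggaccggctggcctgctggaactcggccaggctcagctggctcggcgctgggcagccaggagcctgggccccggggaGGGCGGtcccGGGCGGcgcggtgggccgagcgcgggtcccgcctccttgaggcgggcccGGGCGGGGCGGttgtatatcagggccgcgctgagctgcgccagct
SESN2: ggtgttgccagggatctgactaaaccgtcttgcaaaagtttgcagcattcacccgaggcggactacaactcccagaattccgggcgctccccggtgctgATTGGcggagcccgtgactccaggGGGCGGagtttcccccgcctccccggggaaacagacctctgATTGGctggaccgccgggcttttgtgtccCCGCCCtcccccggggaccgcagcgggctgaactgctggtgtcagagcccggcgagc
BBC3: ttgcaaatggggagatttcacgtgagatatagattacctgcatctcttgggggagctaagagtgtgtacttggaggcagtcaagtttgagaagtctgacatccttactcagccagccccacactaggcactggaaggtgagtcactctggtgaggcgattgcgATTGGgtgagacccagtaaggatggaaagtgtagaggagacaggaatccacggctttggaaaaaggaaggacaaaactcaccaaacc
PMAIP1: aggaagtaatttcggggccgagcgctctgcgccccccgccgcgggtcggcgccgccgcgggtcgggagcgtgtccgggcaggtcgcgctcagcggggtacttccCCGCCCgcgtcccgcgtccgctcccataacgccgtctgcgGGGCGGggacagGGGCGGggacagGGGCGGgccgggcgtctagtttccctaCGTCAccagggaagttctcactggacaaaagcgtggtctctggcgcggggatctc
GGGCGG was found 4 times in the CDKN1A window, where the 2 copies nearest the start share a base, 2 times in SESN2 and 4 times in PMAIP1, and in 42.6% of 35116 promoters of the same length. CCAAT was found 2 times in SESN2 and 1 time in BBC3, and in 32.0% of promoters. TGACG was found 1 time in PMAIP1, and in 21.2% of promoters. TATAAA was in none of the 4 windows and in 10.7% of promoters. The decamer of the p53 consensus was searched on both strands and was in none of the 4 windows, against 5.57% of promoters and 6 of the 44 windows listed for members, some of which have several starts. Such matches describe letters, not bound sites, and the absence of a match says only that these letters are not in the window.

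The 5 genes of DNA repair and nucleotide supply did not pass in P95H against WT in either fit. RRM2B, the p53-inducible ribonucleotide reductase subunit, had 57.2 and 51.7 CPM in P95H, against 58.3 and 64.1 CPM in WT. Its genotypes did not overlap, and the log2 change was -0.16 (SE 0.08) in the block fit with an edgeR adjusted p of 0.64. DDB2, the damaged-DNA binding protein of nucleotide excision repair, had 8.74 and 14.4 CPM in P95H and 8.80 and 11.6 CPM in WT, and its pair differences were -0.01 and 0.31. XPC, the lesion sensor of the same pathway, had 14.4 and 15.2 CPM in P95H and 16.7 and 15.4 CPM in WT, so both P95H libraries lay just below both WT libraries. POLH, a translesion polymerase, had 34.7 and 30.4 CPM in P95H and 30.1 and 37.4 CPM in WT. AEN, an apoptosis-linked nuclease, had 96.5 and 127 CPM in P95H and 97.9 and 139 CPM in WT and was high in the replicate 2 libraries of both genotypes.

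The death receptor genes FAS and TNFRSF10B were at the low end of detection, with 7 to 21 counts per library. FAS, the receptor of Fas ligand, had 0.279 and 0.270 CPM in P95H, against 0.154 and 0.521 CPM in WT, and 0.480 CPM in the uninduced library. TNFRSF10B, a TRAIL receptor, had 0.253 and 0.270 CPM in P95H, against 0.309 and 0.198 CPM in WT, and 0.240 CPM in the uninduced library. The genotypes overlapped, and at this depth no difference was detectable.

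The BH3-only genes, whose products start mitochondrial apoptosis, did not pass in either fit. PMAIP1, which encodes NOXA, had 53.3 and 49.7 CPM in P95H, against 56.5 and 56.8 CPM in WT. The 2 genotypes did not overlap at 51.5 ± 2.57 and 56.6 ± 0.192 CPM (SD, n = 2 each), but the log2 change of -0.13 (SE 0.08) in the block fit had an edgeR adjusted p of 0.743. BBC3, which encodes PUMA, had 3.09 and 4.66 CPM in P95H, against 3.49 and 5.55 CPM in WT, with an overlap and a log2 change of -0.20 (SE 0.18) in the block fit. BCL2L11, which encodes BIM, had 62.5 and 65.9 CPM in P95H and 63.4 and 71.4 CPM in WT. BID, cleaved by caspase-8 into its active form, had 50.1 and 51.0 CPM in P95H and 49.4 and 51.9 CPM in WT, which made it one of the steadiest members.

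Pore-forming and anti-apoptotic genes did not pass in either fit. BAX had 38.9 and 52.2 CPM in P95H, against 44.1 and 51.8 CPM in WT, and BAK1 had 14.6 and 15.0 CPM in P95H, against 15.4 and 16.5 CPM in WT. BAX overlapped between genotypes, BAK1 did not, and their log2 changes in the block fit were -0.07 (SE 0.09) and -0.09 (SE 0.11). BCL2 had 58.9 and 40.2 CPM in P95H, against 58.6 and 42.7 CPM in WT. MCL1, the short-lived relative of BCL2, had 288 and 323 CPM in P95H, against 293 and 326 CPM in WT. In both genes the replicate numbers stood apart and the genotypes did not, with log2 changes in the block fit of -0.03 (SE 0.08) for BCL2 and -0.01 (SE 0.07) for MCL1.

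APAF1, the scaffold of the apoptosome, had 52.2 and 44.4 CPM in P95H, against 64.2 and 55.8 CPM in WT. Both P95H libraries lay below both WT libraries, and the pair differences were alike at -0.30 and -0.33. It did not pass: the log2 change was -0.30 (SE 0.13) on genotype alone and -0.30 (SE 0.08) in the block fit, where the edgeR adjusted p was 0.112. CASP9, the initiator caspase that APAF1 activates, had 6.44 and 5.95 CPM in P95H and 8.80 and 5.80 CPM in WT, with an overlap. XIAP, an inhibitor of caspases, had 54.5 and 44.0 CPM in P95H and 54.2 and 49.9 CPM in WT, also with an overlap.

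Other genes of the pathway were counted from 3 further lists. MDM4, the inhibitory partner of MDM2, had 140 and 118 CPM in P95H and 133 and 105 CPM in WT and did not pass. Of 17 tested p53 regulators and 14 tested further p53 targets, 0 passed edgeR's test in P95H against WT in either fit, with medians on genotype alone of -0.08 and -0.06. Of 27 tested apoptosis genes, BMF, a further BH3-only gene, fell in the block fit. BMF had 2.76 and 3.22 CPM in P95H replicates 1 and 2, against 3.09 and 9.55 CPM in WT replicates 1 and 2, so WT replicate 2 stood far above the others. Its log2 change in the block fit was -0.92 (SE 0.22, edgeR adjusted p 0.0372), with pair differences of -0.16 and -1.55. DESeq2 with the block called 0 of these 27 genes. It gave no adjusted p to several of them, BMF among them, so those could not be called. DESeq2's unadjusted p for BMF was 0.190. CDKN2A, which encodes p16 and ARF, had 0 counts in every library.

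The comparisons with the uninduced library ask what the cells' RNA looked like with and without doxycycline, and in them BBC3 and PMAIP1 were the members that passed edgeR's block fit, upwards, in P95H and in WT under both placings of that library. DESeq2 with the block called both genes under both placings in WT, but in P95H it called BBC3 only placed with replicate 2 and PMAIP1 only placed with replicate 1. The share of all genes that rose in every one of these edgeR fits was not counted, so whether these members stand out is not known. The uninduced library is a single sample of the P95H line, so P95H against it follows doxycycline within 1 line, while WT against it also mixes the lines. The 2 comparisons share that library and are not independent. On genotype alone, edgeR called 0 of 23970 genes (0%) in P95H and 0 (0%) in WT, at unadjusted p under 0.05 for 818 and 1122 genes, and DESeq2 called 7 in each. In the block fit the uninduced library, which carries no replicate number, was placed once with the replicate 2 libraries, whose mitochondrial share it had, and once with the replicate 1 libraries. These fits also leave 1 residual degree of freedom. The lone uninduced library is assumed to vary like the others, so their p-values hold no measure of the spread between uninduced cultures.

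Placed with replicate 2, edgeR called 866 genes (3.61%) in P95H, with 215 rises (0.897%), and 4 members, BBC3, BTG2, DDB2 and PMAIP1, all up. In WT it called 1413 genes (5.89%), with 476 rises (1.99%), and 10 members, all up. Placed with replicate 1, it called 3685 genes (15.4%) in P95H, with 1184 rises (4.94%) and 2501 falls (10.4%), and 9 members, 6 up and 3 down. In WT it then called 3697 genes (15.4%), with 1318 rises (5.50%), and 7 members, all up. All 4 doxycycline libraries lay above the uninduced library in 11 members, where 21.4% of genes did, and below it in 1 member, BID, where 25.9% of genes did. Placed with replicate 1, 9 of 9 erythroid markers fell in P95H and 5 of 9 in WT. Placed with replicate 2, 1 of 9 rose in P95H and 2 of 9 rose in WT. The part of the lineage markers in the members' changes was not tested.

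With DESeq2's size factors, edgeR's block fit called 7 members in P95H placed with replicate 2 (3.17% of genes) and 9 placed with replicate 1 (15.3%), and in WT it called 11 (6.20% of genes) and 7 (15.7%), each count including BBC3 and PMAIP1. The DESeq2 test with the block called fewer genes. In P95H it called BBC3 placed with replicate 2, where 0.167% of genes passed, and BCL2, PMAIP1 and SESN2 placed with replicate 1, where 4.72% did. In WT it called BBC3, BTG2 and PMAIP1 placed with replicate 2, where 0.509% of genes passed, and BBC3, BCL2, CCNG1, PMAIP1 and SESN2 placed with replicate 1, where 4.50% did. All of these were up, and the other edgeR calls on members given below did not pass DESeq2. These shares are of all genes tested, including those to which DESeq2 gave no adjusted p. In P95H those were 7436 genes placed with replicate 2 and 12548 placed with replicate 1, and in WT 10224 and 12083. Among genes with an adjusted p the shares are therefore higher.

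**Figure D3:**
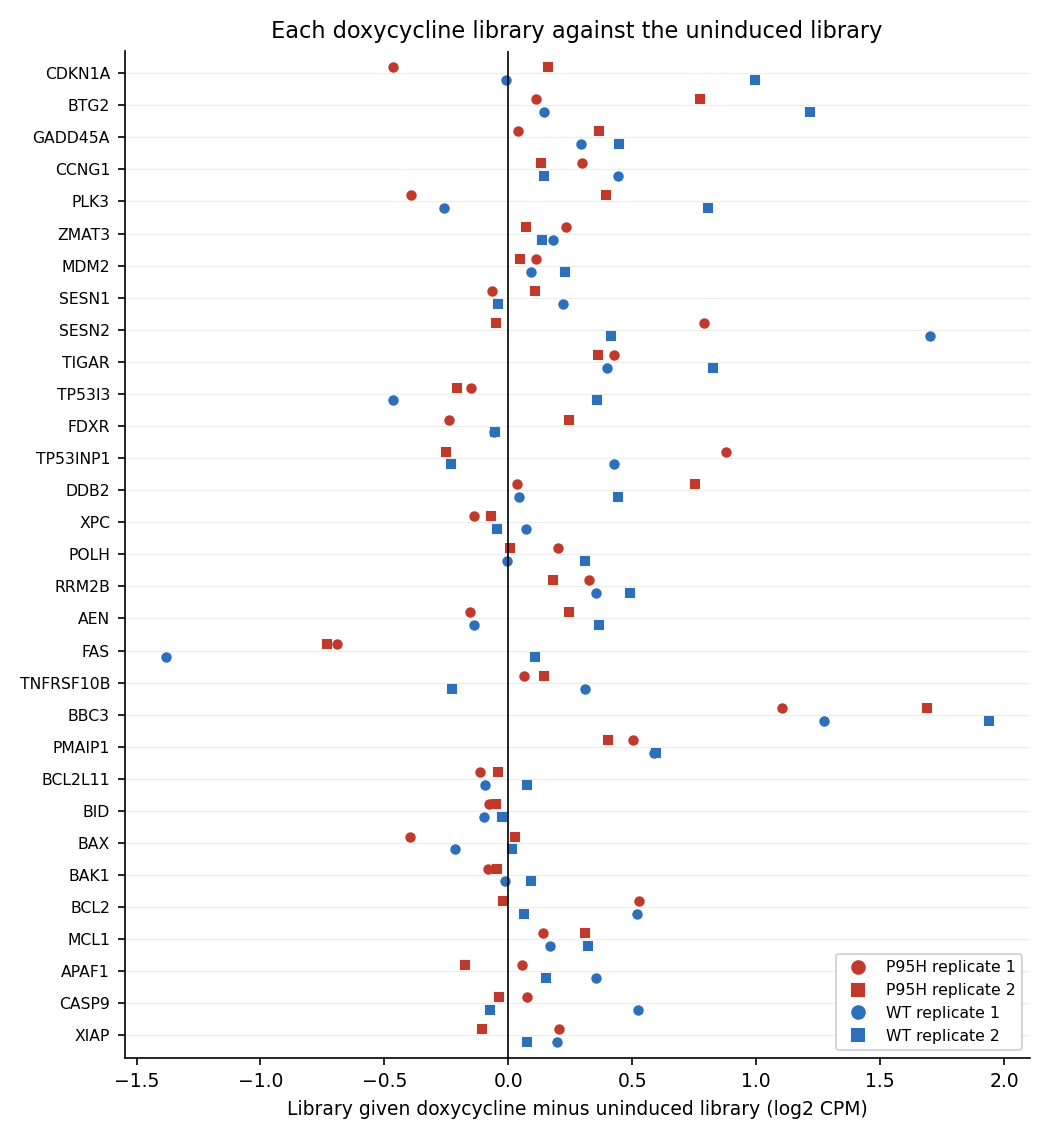
For each of the 31 genes, ordered by role from arrest genes at the top to the apoptosome at the bottom, the log2 CPM of each library given doxycycline minus that of the single uninduced library. BBC3 lies farthest to the right as a group of 4 (1.10 to 1.94), the 4 points of PMAIP1 lie between 0.40 and 0.59, and in CDKN1A, PLK3 and BAX the squares of replicate 2 lie to the right of the circles of replicate 1.

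BBC3 (ENSG00000105327, chromosome 19, 47220822 to 47232766, minus strand) had 3.88 ± 1.11 CPM in P95H and 4.52 ± 1.46 CPM in WT (SD, n = 2 each), against 1.41 CPM from 53 counts in the uninduced library. The 95% exact Poisson interval of that last value, which covers counting error only, was 1.06 to 1.85 CPM, and every doxycycline library lay above it. In P95H the log2 change of BBC3 was 1.74 (SE 0.29, edgeR adjusted p 5.59e-07) placed with replicate 2 and 1.11 (SE 0.29, edgeR adjusted p 0.00252) placed with replicate 1, and DESeq2's adjusted p were 0.0437 and 0.0974 in the same order. In WT it was 1.95 (SE 0.29, edgeR adjusted p 2.76e-09) and 1.32 (SE 0.29, edgeR adjusted p 0.000144) in the same order. On genotype alone the values were 1.46 (SE 0.45) in P95H and 1.67 (SE 0.45) in WT, with edgeR adjusted p of 0.972 and 0.896.

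PMAIP1 (ENSG00000141682, chromosome 18, 59899948 to 59904306, plus strand) was above the uninduced level of 37.6 CPM, with an exact Poisson interval of 35.6 to 39.6, in all 4 doxycycline libraries. Its 4 differences ran from 0.40 to 0.59. In P95H the log2 change was 0.43 (SE 0.12, edgeR adjusted p 0.0115) placed with replicate 2 and 0.48 (SE 0.12, edgeR adjusted p 0.000744) placed with replicate 1, and DESeq2's adjusted p were 0.467 and 0.0314 in the same order. In WT it was 0.57 (SE 0.12, edgeR adjusted p 9.21e-05) and 0.62 (SE 0.12, edgeR adjusted p 5.53e-06). The other BH3-only genes did not pass in either placing, with BCL2L11 at 67.8 CPM and BID at 52.8 CPM in the uninduced library. Among genes outside the list, BMF was also above its uninduced 2.05 CPM in all 4 doxycycline libraries, and it passed in P95H when placed with replicate 2 (1.02, edgeR adjusted p 0.01, DESeq2 adjusted p 0.909) and not when placed with replicate 1 (0.03). In WT, DESeq2 called BMF placed with replicate 2 (log2 change 1.95) and not placed with replicate 1 (1.00).

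The arrest genes depended on the placing. CDKN1A was level with the uninduced 9.98 CPM in WT replicate 1 (-0.01), above it in WT replicate 2 (0.99) and P95H replicate 2 (0.16) and below it in P95H replicate 1 (-0.46). In P95H its log2 change was 0.26 (SE 0.17) placed with replicate 2, which did not pass, and -0.57 (SE 0.17, edgeR adjusted p 0.00913) placed with replicate 1. In WT it was 0.91 (SE 0.17, edgeR adjusted p 7.73e-06) placed with replicate 2 and 0.09 (SE 0.17) placed with replicate 1. PLK3, at 15.7 CPM in the uninduced library, changed sign in the same way in P95H, with 0.46 (SE 0.15, edgeR adjusted p 0.0513) placed with replicate 2 and -0.47 (SE 0.15, edgeR adjusted p 0.0147) placed with replicate 1. No direction against the uninduced library can therefore be given for CDKN1A or PLK3 in P95H.

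Other arrest genes lay above the uninduced library in all 4 doxycycline libraries. BTG2, at 10.9 CPM there, rose by 0.88 (SE 0.16) in P95H and 1.13 (SE 0.16) in WT placed with replicate 2, while placed with replicate 1 the values were 0.00 and 0.25. CCNG1, at 243 CPM there, rose in both genotypes only when it was placed with replicate 1, by 0.33 (SE 0.10) in P95H and 0.41 (SE 0.10) in WT. GADD45A, at 62.7 CPM there, passed in WT placed with replicate 2 (0.49, edgeR adjusted p 0.000493) and not in P95H in the same placing (0.33, edgeR adjusted p 0.064). ZMAT3, at 47.5 CPM, and MDM2, at 193 CPM, were above as well but did not pass in any fit, with all 4 differences between 0.07 and 0.23 for ZMAT3 and between 0.05 and 0.23 for MDM2.

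SESN2 was higher than the uninduced 10.9 CPM in WT in both placings. Its log2 change in WT was 0.54 (SE 0.15, edgeR adjusted p 0.0149) placed with replicate 2 and 1.61 (SE 0.15, edgeR adjusted p 3.04e-23) placed with replicate 1. In P95H it was -0.17 (SE 0.15), not passing, and 0.90 (SE 0.15, edgeR adjusted p 2.4e-07). Of the other antioxidant and metabolic genes, TP53INP1, at 2.75 CPM in the uninduced library, passed in P95H placed with replicate 1 (0.79, SE 0.27) and not placed with replicate 2 (-0.13). TIGAR, at 2.21 CPM in the uninduced library, was above it in all 4 doxycycline libraries and did not pass. SESN1 at 33.8, TP53I3 at 2.43 and FDXR at 7.79 CPM in the uninduced library lay within or beside the range of the other libraries.

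In the repair group RRM2B, at 45.6 CPM in the uninduced library, was lower there than in every doxycycline library. In WT RRM2B rose by 0.42 (SE 0.11, edgeR adjusted p 0.00715) placed with replicate 2 and by 0.43 (SE 0.11, edgeR adjusted p 0.00278) placed with replicate 1, and in P95H the values of 0.25 and 0.26 did not pass. DDB2, at 8.53 CPM there, rose in P95H placed with replicate 2 (0.68, SE 0.18, edgeR adjusted p 0.00608), where P95H replicate 2 was the highest library at 14.4 CPM, and was 0.12 placed with replicate 1. AEN, at 108 CPM there, passed in WT placed with replicate 2 (0.34, SE 0.10) and was -0.11 placed with replicate 1. XPC at 15.9 and POLH at 30.2 CPM in the uninduced library did not pass.

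Among the mitochondrial effectors the results again followed the placing. BAX, at 51.2 CPM in the uninduced library, fell in P95H placed with replicate 1 (-0.35, SE 0.12, edgeR adjusted p 0.0233) and was -0.02 placed with replicate 2, while BAK1, at 15.5 CPM there, did not pass. BCL2, at 40.9 CPM, rose in both genotypes placed with replicate 1, by 0.50 (SE 0.12) in P95H and 0.54 (SE 0.12) in WT, and was at 0.00 and 0.04 placed with replicate 2. MCL1, at 261 CPM, lay below all 4 doxycycline libraries and passed in WT placed with replicate 2 (0.33, SE 0.10). APAF1, at 50.2 CPM in the uninduced library, rose in WT placed with replicate 1 (0.36, SE 0.11, edgeR adjusted p 0.0137), and CASP9 at 6.11 and XIAP at 47.3 CPM did not pass.

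Of the further p53 targets, RPS27L rose in both genotypes placed with replicate 2, and in P95H it was the only rise, against 3 falls. With DESeq2's size factors the falls in P95H there were PERP and PIDD1, both below the uninduced library in all 4 doxycycline libraries. RPS27L, a ribosomal protein paralogue, had 39.8 and 60.1 CPM in P95H and 37.6 and 63.3 CPM in WT, against 31.8 CPM in the uninduced library, and rose by 0.96 (SE 0.12) in P95H and 0.96 (SE 0.12) in WT. In that placing 0 of 17 regulators, 4 of 14 further targets (1 up, 3 down) and 1 of 27 apoptosis genes passed edgeR's test in P95H, where 3.61% of all genes did, and 2, 4 and 3 passed in WT, where 5.89% did. Placed with replicate 1, 5 of 17 regulators (3 up, 2 down), 4 of 14 further targets (all down) and 3 of 27 apoptosis genes (all up) passed in P95H, and 4, 5 and 4 in WT, where 15.4% of all genes did in each genotype. The share of apoptosis genes was thus not above that of all genes in this placing in either genotype. The shares of regulators and further targets were above it in both. Whether these small lists differ from all genes was not tested. DESeq2's log2 changes of RPS27L in this placing were 0.30 in P95H and 0.30 in WT, neither past its test. For the further targets NOTCH1, PIDD1 and CD82 they were -0.73, -0.91 and -0.64 in P95H. All of these passed, with DESeq2 adjusted p of 4.74e-05, 0.0128 and 0.0306. In WT they were -0.50, -0.81 and -0.58, with DESeq2 adjusted p of 0.0116, 0.0365 and 0.0588, so CD82 did not pass there. In edgeR's block fit with DESeq2's size factors, 9 of the 14 tested targets were negative in P95H in this placing and 5 were positive. MDM4, at 112 CPM in the uninduced library, was among the 3 regulators up in P95H there (0.34, SE 0.10, edgeR adjusted p 0.00969, DESeq2 adjusted p 0.0824).

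Several members differed more between replicate numbers than between genotypes. In both genotypes 13 members were higher in replicate 2 than in replicate 1, where 34.0% of genes were, and 8 were lower, where 36.0% of genes were. Replicate 2 minus replicate 1 was 0.62 in P95H and 1.00 in WT for CDKN1A, 0.66 and 1.07 for BTG2, 0.79 and 1.07 for PLK3, and 0.59 and 0.66 for BBC3. It was negative for SESN2 at -0.84 in P95H and -1.29 in WT, for TP53INP1 at -1.13 and -0.66, and for BCL2 at -0.55 and -0.46. CDKN1A and SESN2, the members that fell in P95H, thus stood at opposite ends of this contrast. The mitochondrial share moved with the number, at 1.38% in replicate 1 of both genotypes and 4.31% and 4.50% in replicate 2 of P95H and WT, and its part in these differences was not tested.

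**Figure D4:**
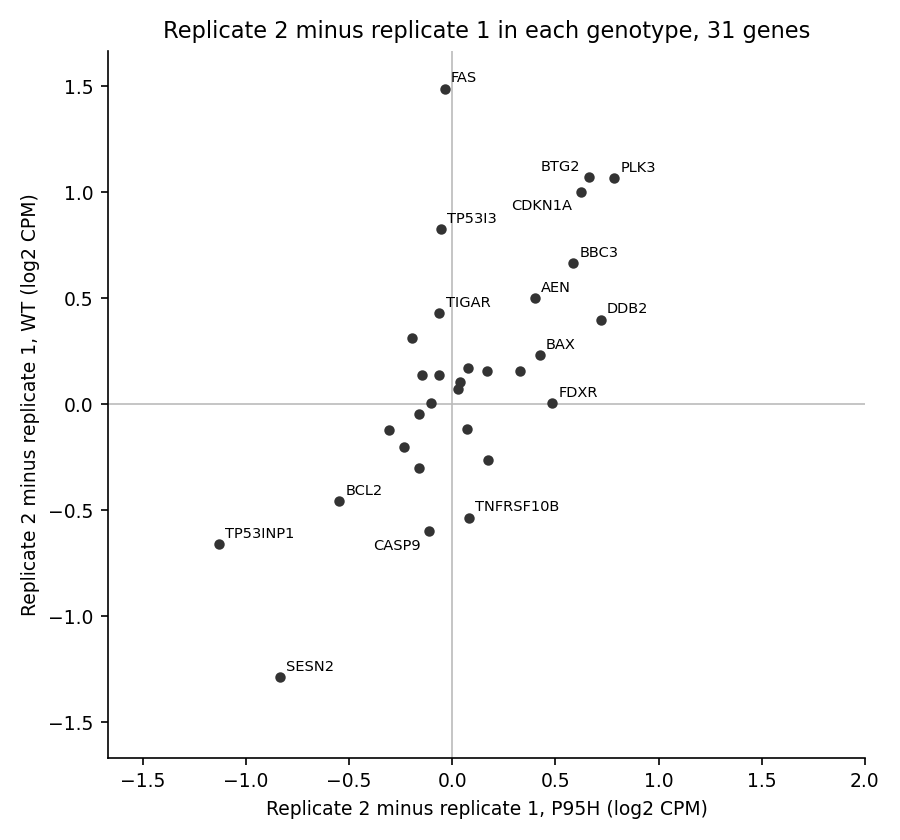
Log2 CPM of replicate 2 minus replicate 1 in P95H (x axis) and in WT (y axis) for each of the 31 genes. BTG2, PLK3 and CDKN1A lie at the upper right and SESN2, TP53INP1 and BCL2 at the lower left, while FAS, with 7 to 21 counts per library, lies at -0.04 and 1.49.

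SRSF2 binding was described by the authors' deposited table of HITS-CLIP windows that differed between P95H and WT, which lists only windows past the authors' threshold, with an adjusted p of at most 0.05 and at least a log2 change of 1. It held 8100 distinct windows, of which 77.7% were lower in P95H. Of the members GADD45A, MCL1 and XPC had 1 window each, 2 higher and 1 lower in P95H, and the other 28 had none there, which does not show that they were unbound. CDKN1A, SESN2, BBC3 and PMAIP1 had no window in it.

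In GADD45A the window at chr1:67687941-67687961 on the plus strand (GRCh38), 377 bases from the end of the gene, averaged 0.46 CPM (SEM 0.27) in P95H and 0.12 CPM (SEM 0.09) in WT, in the authors' deposited table. Its log2 change there was 1.70 with the authors' adjusted p of 0.0305. In MCL1 the window at chr1:150577097-150577117 on the minus strand averaged 1.04 CPM (SEM 0.55) in P95H and 0.32 CPM (SEM 0.21) in WT in the authors' deposited table, with a log2 change of 1.49 and an adjusted p of 0.0181. In XPC the window at chr3:14170478-14170498 on the minus strand averaged 0.41 CPM (SEM 0.4) in P95H and 2.47 CPM (SEM 1.55) in WT in the authors' deposited table, with a log2 change of -2.35 and an adjusted p of 3.62e-05. XPC was the only member with less binding in P95H among these 3. All 6 means lay below the medians over all windows of the authors' deposited table, 1.355 CPM in P95H and 3.03 CPM in WT. At the RNA level the log2 changes of these genes in the block fit were -0.16 (SE 0.08) for GADD45A, -0.01 (SE 0.07) for MCL1 and -0.11 (SE 0.11) for XPC, none past edgeR's test.

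**Figure D5:**
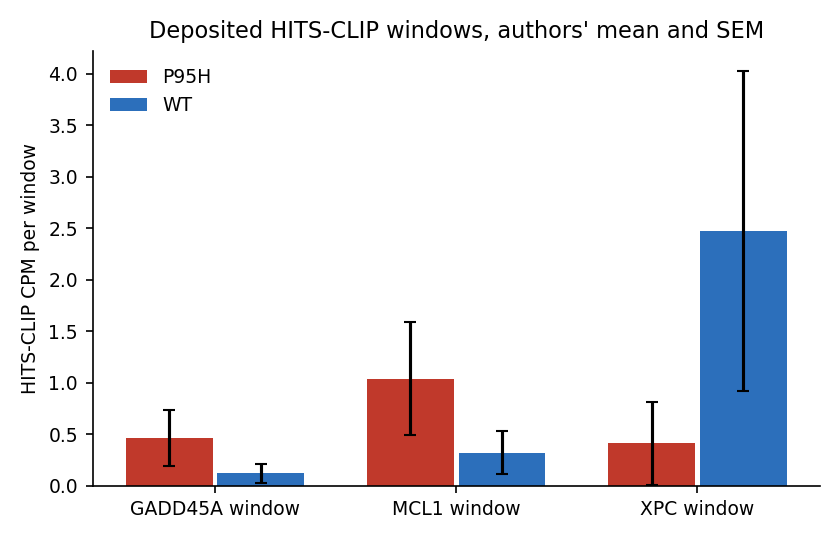
Mean HITS-CLIP CPM of the 3 deposited windows on member genes in P95H and WT, with bars for the authors' means and error bars for the authors' standard error of the mean. The GADD45A and MCL1 windows are higher in P95H (0.46 against 0.12 and 1.04 against 0.32 CPM), and the XPC window is lower in P95H (0.41 against 2.47 CPM).

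For 8 members, TIGAR, TP53I3, TP53INP1, DDB2, XPC, POLH, FAS and TNFRSF10B, another annotated gene overlaps the member and reached at least 10% of the member's lowest count. The sources used here do not give whether counting used strand, so reads of such neighbours could be part of their values.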

How the data were processed

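Groups came from the labels. The authors deposited raw counts per Ensembl gene for the RNA-seq libraries. Build GRCh38.p3 and the programs TopHat2 2.0.14, STAR 2.5.3a and edgeR are listed, without roles, in the submitters' processing notes; the sources used here do not give the counting program or its use of strand. The authors deposited, per the file headers, a log2 change, an adjusted p-value and mean CPM with its standard error for each HITS-CLIP window, but no value per sample; 224 of 8324 entries repeated a window and were counted once.

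Counts were tested in R 4.3.3 with edgeR 4.0.16 (filterByExpr, TMM factors 0.958 to 1.04, quasi-likelihood test, two-sided, Benjamini-Hochberg over all genes, threshold 0.05) and, as alternatives, DESeq2 1.42.0, other filters and scalings, and each replicate left out. P95H against WT used 4 libraries, and the comparisons with the uninduced library used all 5, its spread being taken from the others. CPM are TMM-scaled, log2 CPM had a prior count of 2, and tables and figures were made in Python 3.11.15 with pandas 2.3.3 and matplotlib 3.10.9. The scripts were tested on simulated data.

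The block adds the replicate number, which the labels share between P95H and WT. Same-numbered libraries deviated from their genotype means together, with a correlation of 0.474 over 23970 genes, and with 2 pairs that is no proof of shared cultures. If replicates were not separate cultures, p-values measure technical spread only.

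The 31 genes and the further lists were chosen with earlier results of these data known. Each member is described, with fold changes for those past the threshold in any fit and the 2 largest of each role group. Other pathway genes are named only when past the threshold, apart from MDM4 and CDKN2A, the second chosen after its values were seen; 1 gene that the rule takes is not reported here. Promoter sequences came from RefSeq tables of GRCh38.p14, and window sequences were not analysed here.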

Additional observations from a re-analysis of the deposited data

How the results depend on the processing

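On genotype alone, 0 members passed in any of the 3 comparisons under DESeq2 size factors, the DESeq2 test, a filter of 1 CPM in 2 libraries and each fit that left out 1 P95H or WT replicate (0 members each). P95H against WT with all 5 libraries in the fit also gave 0. The exception was WT against uninduced with no filter on low counts, which gave 2 members, where 128 of 39538 genes passed. The replicate block changed every count: P95H against WT gave 2 members, 2 with DESeq2 size factors and 1 with the DESeq2 test, where 84, 85 and 11 of 22007 genes passed. P95H against uninduced gave 4, 7 and 1 members placed with replicate 2 and 9, 9 and 3 placed with replicate 1, for edgeR, edgeR with DESeq2 size factors and DESeq2, where 3.61%, 3.17% and 0.167% and then 15.4%, 15.3% and 4.72% of all genes passed. WT against uninduced gave 10, 11 and 3 placed with replicate 2 and 7, 7 and 5 placed with replicate 1, where 5.89%, 6.20% and 0.509% and then 15.4%, 15.7% and 4.50% of all genes passed. The shares of the DESeq2 test with the block are of all genes tested, including those it gave no adjusted p. The DESeq2 fits with the block, and the size factors with the block, were added after seeing the data. The block could not be run with a replicate left out, since 1 pair remains. PLK3 turned from 0.05 on genotype alone to -0.47 in P95H against uninduced placed with replicate 1, and to -0.45 there with DESeq2 size factors; the cause was not tested. Of the 3 HITS-CLIP windows, 1 (XPC) remained at an adjusted p of at most 0.01 and 1 (XPC) at 4-fold or more.

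Of 1234 values of single members under all alternatives, 1014 kept their direction and side of the threshold, 137 moved, 81 came to pass and 2 reversed past the threshold. In P95H against WT, 23 of 31 members changed sign in at least 1 leave-one-out fit, and without WT replicate 2 the median was -0.01. With 2 libraries per genotype and 1 uninduced, small differences of weakly expressed members such as FAS, TNFRSF10B and TP53I3 are not resolved.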
